A study of Mus musculus with 9 samples.

Results

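The genes described here are 42 mouse genes of the actin cytoskeleton and of focal adhesions that are linked to serum response factor (SRF), grouped by function into contractile genes, genes of other actin-binding proteins, genes of the adhesion plaque and a few further SRF-linked genes. A gene was measured where the array holds a probe set that names it alone, and the brightest such probe set, by its mean over all arrays, stood for the gene. On this rule 40 of the 42 genes were measured, among 19935 genes tested in all. They comprised 13 of 14 contractile genes, 8 of 8 actin-binding genes, 14 of 15 adhesion plaque genes and 5 of 5 others. Actg1, which encodes cytoplasmic gamma-actin, lay on 4 probe sets that also name Actb and was left out, and Ptk2, the gene of focal adhesion kinase, was not analysed here.

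Total RNA came from NIH 3T3 cells, an immortalised mouse fibroblast line, in 3 groups of 3 biological replicates with 1 Affymetrix Mouse Gene 1.0 ST array each. Control cells stably carried the pLKO.1 vector, which 1 label field calls a control shRNA plasmid, and the others stably carried an shRNA against Net (gene Elk3) or an shRNA against Sap-1 (gene Elk4). All cells were plated on fibronectin for 2 hours, kept overnight without serum and lysed after 1 hour of bovine serum, at 10% by the protocol of the samples and 20% by that of the series. There was no unstimulated group, so the levels describe cells shortly after serum and not the response to it. The labels do not say how many independently made lines or shRNA sequences each group holds, and p-values then measure only the spread between these cultures.

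SRF is a transcription factor that binds the CArG box and works with 2 kinds of partner. The ternary complex factors Net, Sap-1 and Elk-1 are ETS-domain proteins that respond to MAP kinase signalling. The myocardin-related factors MRTF-A and MRTF-B (genes Mrtfa and Mrtfb) bind actin monomers and enter the nucleus when monomers are used up in filaments, which ties many genes of the actin cytoskeleton to the state of actin itself. Focal adhesions are the plaques of adaptor and signalling proteins through which integrins hold actin bundles to the matrix, and fibroblasts on fibronectin form them readily.

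Of the targeted genes, Elk4 fell by 1.54 (log2) in the Sap-1 knockdown, and Elk3 by 0.42 in the Net knockdown, where Elk4 fell by 0.44. Elk3 fell by 0.12 in the Sap-1 knockdown (adjusted p = 0.023), a call lost in 4 other settings (adjusted p = 0.059 to 0.071). Elk1, the gene of the third factor, lay at 0.02 and -0.08. The coactivator gene Mrtfa fell by 0.22 in the Net knockdown (limma adjusted p = 0.0028) and lay at -0.01 in the Sap-1 knockdown (adjusted p = 0.88). Mrtfb fell by 0.39 in the Net knockdown (adjusted p = 0.036), where its arrays were spread with an SD of 0.32, and this call was lost in several other settings (adjusted p = 0.053 to 0.1). Srf itself lay at 0.01 in the Net knockdown and fell by 0.19 in the Sap-1 knockdown (adjusted p = 0.0085). Fibroblast markers were bright in every group, with a mean over 13 genes of 12.69 to 12.73 on the control, 12.63 to 12.68 on the Net shRNA and 12.44 to 12.46 on the Sap-1 shRNA arrays. In the Sap-1 knockdown 5 of these 13 genes fell and 1 rose, and Pdgfra, a growth factor receptor gene of fibroblasts, fell by 1.74. In the Net knockdown 4 fell and 1 rose. Over all genes 13.9% fell and 15.8% rose in the Sap-1 knockdown, and 10.2% and 13.4% in the Net knockdown. Among genes at or above the median level the shares were 22.3% and 26.9%, and 17.7% and 23.0%. In bulk RNA, fewer cells of a kind and less RNA per cell cannot be told apart. The part of the marker differences in the results below was not tested.

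RefSeq promoter windows of 300 bases (assembly GRCm38.p6, from 250 bases before to 50 after a start site) were on hand for 33 of the 40 genes. An exact CArG box, which is its own reverse complement in pattern and so covers both strands, was found in 9 of the 33 genes (27.3%) and in 488 of the 27025 genes of the whole table (1.81%). The genes were listed for their link to SRF, so this share is a description of the list and not independent evidence. The sequence CCGGAA, a narrow form of ETS site, was searched on both strands and cannot share bases with a CArG box. It was found in 5 of the 33 genes (15.2%) and in 16.7% of the genes of the table. Other forms of ETS site were not searched. The 9 genes with a box were Fhl1, Fhl2, Vil1, Actc1, Myl9, Cnn2, Vcl, Fermt2 and Lima1. Fhl2 had a box in each of 2 windows.

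The stretches below come from RefSeq windows on GRCm38.p6, run 5′ to 3′ on the strand of the gene and have the CArG box in capitals. Those of Myl9 (chr2:156775263-156775352, plus strand) and Fhl1 (chrX:56779541-56779630, plus strand) are shown because both genes differed strongly in 1 knockdown. Those of Cnn2 (chr10:79988504-79988593, plus strand), Lima1 (chr15:99820150-99820236, minus strand) and Vcl (chr14:20929148-20929220, plus strand) were chosen after their values were seen, because they hold the same box and gave different results.
Myl9: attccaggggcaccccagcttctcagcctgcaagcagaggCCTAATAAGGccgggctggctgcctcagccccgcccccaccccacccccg
Fhl1: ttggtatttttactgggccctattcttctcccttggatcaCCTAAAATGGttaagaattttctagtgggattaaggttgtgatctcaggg
Cnn2: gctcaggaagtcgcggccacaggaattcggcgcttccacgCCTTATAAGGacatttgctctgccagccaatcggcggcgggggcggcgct
Lima1: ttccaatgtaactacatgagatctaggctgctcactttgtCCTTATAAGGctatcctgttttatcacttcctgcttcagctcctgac
Vcl: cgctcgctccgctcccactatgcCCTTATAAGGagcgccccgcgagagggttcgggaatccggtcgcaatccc
The box of Cnn2 begins 56 bases, that of Lima1 47 bases and that of Vcl 227 bases before the start site. Among these 3 genes, Cnn2 fell in the Net knockdown and lay at 0 in the Sap-1 knockdown, Lima1 fell in both and Vcl was called in no comparison.

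**Figure D1:**
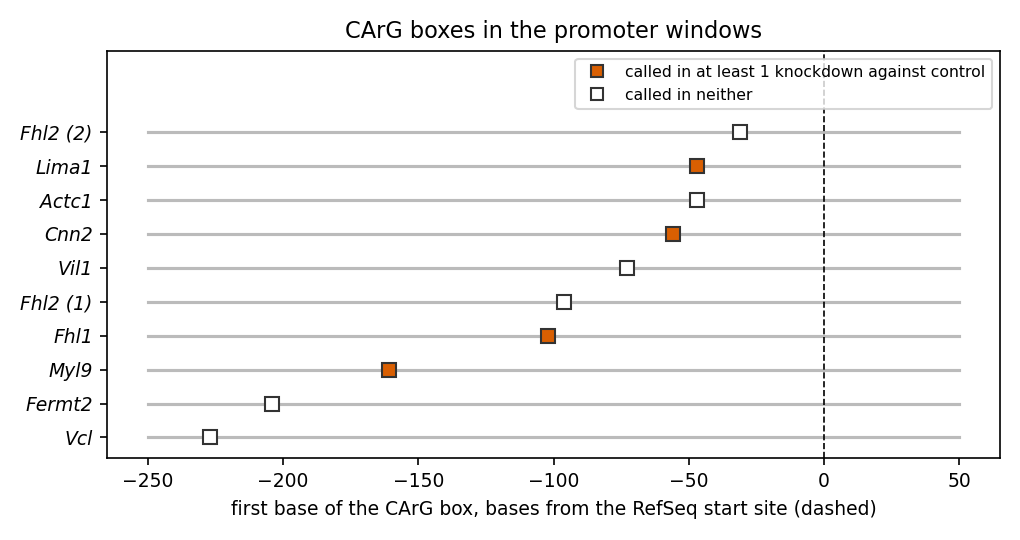
Position of each exact CArG box in the promoter windows of the 9 genes that hold one, with the first base of the box in bases from the RefSeq start site on the x axis and grey lines for the windows (Fhl2 has 2 windows). The boxes lie between 227 bases (Vcl) and 31 bases (Fhl2) before the start, and filled squares mark the genes called in at least 1 knockdown against control.

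Among the 9 genes with a box, none rose and 3 fell in the Net knockdown (Cnn2, Myl9 and Lima1), and none rose and 2 fell in the Sap-1 knockdown (Lima1 and Fhl1). Among the 24 genes whose windows held no exact box, 1 rose and 7 fell in the Net knockdown, and 4 rose and 5 fell in the Sap-1 knockdown. Over all genes, 13.4% rose and 10.2% fell in the Net knockdown, and 15.8% rose and 13.9% fell in the Sap-1 knockdown, and among genes at or above the median level 23.0% and 17.7%, and 26.9% and 22.3%. Whether genes with a box differed from the others was not tested. Tes and Mical2, which went opposite ways in the 2 knockdowns, had windows without an exact box or CCGGAA, and Actg2 was among the genes not matched in the table. No match says only that these letters are not in this window.

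In the Net knockdown the SRF-linked genes that moved were nearly all lower, by modest amounts. Of the 40 genes, 12 fell, 1 rose and 27 were not called, at a limma adjusted p under 0.05 over all 19935 genes. Over all genes 10.2% fell and 13.4% rose. Of the 40 genes, 38 stood at or above the median level of all genes. Among all genes at or above that level 17.7% fell and 23.0% rose, and among the 38 it was 31.6% and 2.63%. The median difference from control was -0.10 (log2) over the 40 genes, 0 over all genes and 0.01 over genes at or above the median level. No group of genes was tested as a group.

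In the Sap-1 knockdown the same genes had no common direction but held the largest rise and the largest fall against control. Of the 40 genes, 5 rose, 8 fell and 27 were not called, where 15.8% of all genes rose and 13.9% fell, and 26.9% and 22.3% of genes at or above the median level. Over the 38 genes at or above that level 13.2% rose and 18.4% fell. The median difference was 0. The 2 comparisons share the control arrays, so their values are given side by side and no relation between them was computed.

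**Figure D2:**
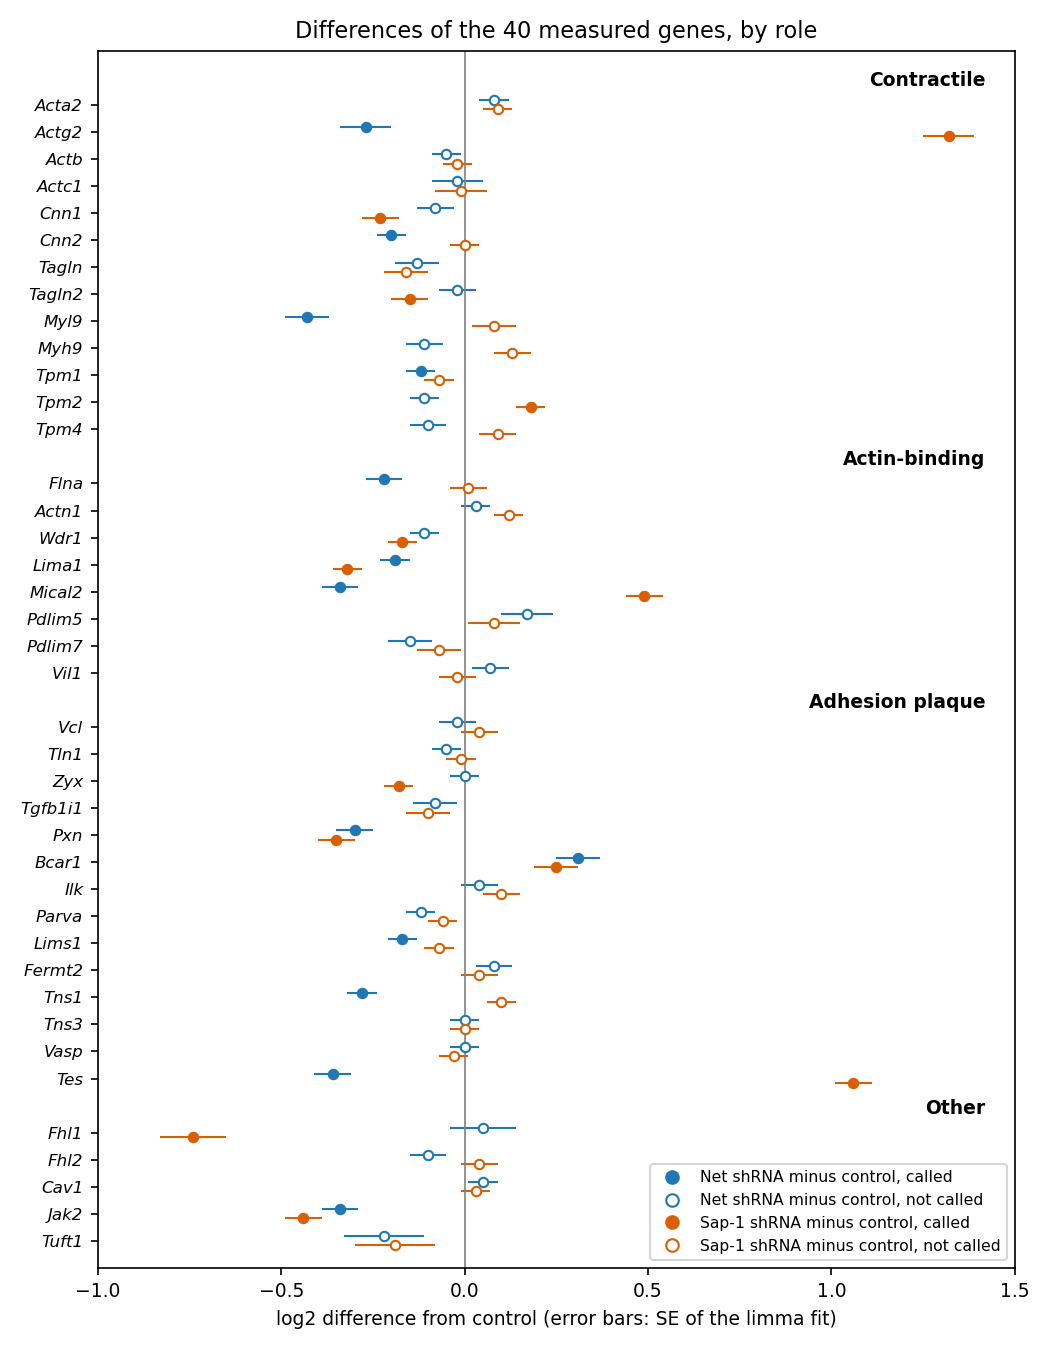
Log2 difference from control of the 40 measured genes, grouped by role, for Net shRNA (blue) and Sap-1 shRNA cells (orange), with the standard error of the limma fit as bars, 3 arrays per group and filled points for called genes. Blue points of contractile genes lie below 0 for 12 of 13 genes, while the orange points of Actg2 (1.32), Tes (1.06) and Fhl1 (-0.74) stand far from the others.

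The contractile genes encode actins, myosin subunits, tropomyosins, calponins and transgelins, the parts of stress fibres. In the Net knockdown 4 of 13 (30.8%) fell and none rose. Over all genes 10.2% fell and 13.4% rose there, and among genes at or above the median level 17.7% and 23.0%. In that knockdown 12 of 13 lay below 0, compared with 51.1% of all genes and 47.8% of genes at or above the median level. In the Sap-1 knockdown 2 rose and 2 fell (15.4% each). Over all genes 15.8% rose and 13.9% fell there, and among genes at or above the median level 26.9% and 22.3%. Between the knockdowns 6 of 13 (46.2%) were lower in Net knockdown than Sap-1 knockdown cells and none were higher, where 13.3% of all genes were lower and 14.2% higher, and 22.9% and 23.2% of genes at or above the median level. The balance over all genes depends on the scaling: with arrays centred on their medians 3196 genes were lower and 2320 higher between the knockdowns, and 2331 lower and 2315 higher in the Net knockdown, where the deposited scaling gave 2034 and 2680.

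Actg2, the gene of enteric smooth muscle gamma-actin, differed most between the groups. On the control arrays its level was 8.10, 8.31 and 8.33 (log2), on the Net shRNA arrays 8.03, 7.88 and 8.03, and on the Sap-1 shRNA arrays 9.63, 9.44 and 9.63. No 2 groups overlapped, with the Net shRNA arrays just below control and the Sap-1 shRNA arrays far above. The level was 8.25 ± 0.13 in control, 7.98 ± 0.09 in the Net knockdown and 9.57 ± 0.11 in the Sap-1 knockdown (SD, n = 3). It rose by 1.32 (SE 0.07, limma adjusted p = 2.2e-07), or 2.49-fold, in the Sap-1 knockdown. It fell by 0.27 in the Net knockdown (SE 0.07, adjusted p = 0.022), a call that was lost without control replicate 2, control replicate 3 or Net shRNA replicate 2 (adjusted p = 0.085 to 0.091). The direct difference, Net minus Sap-1 shRNA, was -1.58 (95% interval -1.75 to -1.42, adjusted p = 4.1e-08).

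The other measured actin genes of the list, Acta2, Actb and Actc1, were called in no comparison. Acta2, the vascular smooth muscle alpha-actin gene, stood at 13.38 ± 0.03, 13.46 ± 0.01 and 13.47 ± 0.01 in control, Net knockdown and Sap-1 knockdown cells (n = 3 each), and its differences of 0.08 and 0.09 did not pass (adjusted p = 0.14 and 0.079), although they passed with an intensity trend in the variances. Actb, the cytoplasmic beta-actin gene, lay at -0.05 and -0.02, and Actc1, the cardiac actin gene, at -0.02 and -0.01. Actin genes are close in sequence and cross-hybridisation was not tested, so their separate values are uncertain.

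Markers of muscle were read beside Actg2. The mean of 12 smooth muscle markers was 7.48 to 7.54 on the control, 7.52 to 7.53 on the Net shRNA and 7.54 to 7.59 on the Sap-1 shRNA arrays, and 3 of them rose and 3 fell in the Sap-1 knockdown. Hspb6, a small heat shock protein gene of muscle, rose there by 0.76, the intermediate filament gene Des by 0.63 and Synm by 0.17. The smoothelin gene Smtn fell by 0.34, Lmod1 by 0.33 and Kcnmb1 by 0.20. Myh11, the smooth muscle myosin gene, lay at -0.01 and Myocd, the myocardin gene, at 0.02, both at dim control levels of 7.49 and 6.11. Of 14 striated muscle markers 4 rose and 1 fell in the Sap-1 knockdown, and their mean was 7.20 to 7.31 on control and 7.28 to 7.38 on Sap-1 shRNA arrays. Those that rose were the troponin gene Tnnt2 (0.85), Des (0.63), the skeletal actin gene Acta1 (0.42, adjusted p = 2.8e-05) and Myh6 (0.19). Tnnt3, another troponin gene, fell by 0.18. Several of these called markers were dim as well, with control levels below the median of all genes (7.81). They were Des (6.88), Synm (7.6), Kcnmb1 (5.93) and Myh6 (6.77), and the Sap-1 shRNA and control arrays of Kcnmb1 overlapped. In the Net knockdown 3 smooth muscle markers rose and 1 fell, and 2 striated muscle markers rose. Des is on both lists and rose in both knockdowns, so each of these counts of rises includes it. Over all genes 13.4% rose and 10.2% fell in the Net knockdown, and 15.8% and 13.9% in the Sap-1 knockdown. Acta1 lay at -0.13 in the Net knockdown (adjusted p = 0.063), and its direct difference of -0.55 (adjusted p = 3.6e-06) had the sign of that of Actg2. The part of these markers in the result for Actg2 was not tested.

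Myl9, which encodes a regulatory light chain of myosin II and has a CArG box 161 bases before its start site, fell in the Net knockdown. Its level was 10.21, 10.30 and 10.43 on the control arrays, 9.81, 9.99 and 9.87 on the Net shRNA arrays and 10.40, 10.43 and 10.35 on the Sap-1 shRNA arrays. The Net shRNA arrays lay below all others, and the control and Sap-1 shRNA arrays overlapped. The fall was 0.43 (SE 0.06, adjusted p = 0.00051), and the difference in the Sap-1 knockdown was 0.08 (95% interval -0.06 to 0.22). Net minus Sap-1 shRNA gave -0.50 (adjusted p = 9.9e-05).

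Myh9, the heavy chain of non-muscle myosin IIA, was called in neither knockdown, at -0.11 and 0.13, but was lower in Net knockdown than Sap-1 knockdown cells by a difference of -0.24 (adjusted p = 0.0044). Its 2 probe sets disagreed. The dimmer one lay at -0.36 in the Net and -0.47 in the Sap-1 knockdown, and with the mean of both the direct difference was -0.07 (adjusted p = 0.61) and the Net knockdown passed against control (-0.23, adjusted p = 0.049).

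Tropomyosins wrap along actin filaments and set which proteins reach them. Tpm2 rose by 0.18 in the Sap-1 knockdown (SE 0.04, adjusted p = 0.009), its arrays at 10.74, 10.78 and 10.70 against 10.55, 10.56 and 10.56 in control. In the Net knockdown it lay at -0.11 (adjusted p = 0.12) and passed in 3 of 17 other settings (-0.19 to -0.13, adjusted p = 0.014 to 0.045). Net minus Sap-1 shRNA was -0.29 for Tpm2 (adjusted p = 0.00048) and -0.19 for Tpm4 (adjusted p = 0.009), which was called in neither knockdown (-0.10 and 0.09). With the median of the 50 nearest expressed genes taken off on every array, a check on shifts shared along a chromosome, Tpm4 passed in the Net knockdown (-0.30, adjusted p = 0.0025). Tpm1 fell by 0.12 in the Net knockdown (adjusted p = 0.044), a call at the edge that was lost in 10 of 17 other settings (adjusted p = 0.05 to 0.12), and lay at -0.07 in the Sap-1 knockdown.

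Calponins and transgelins bind along actin filaments, and Cnn1 and Tagln are well-known SRF targets of smooth muscle. Cnn2 had 13.03, 13.04 and 13.03 on the control, 12.82, 12.80 and 12.87 on the Net shRNA and 13.04, 13.02 and 13.05 on the Sap-1 shRNA arrays, so the Net shRNA arrays alone stood apart. It fell by 0.20 in the Net knockdown (SE 0.04, adjusted p = 0.002) and differed between the knockdowns by -0.20 (adjusted p = 0.0015), the latter reaching -0.12 and not passing (adjusted p = 0.059) with the neighbours' median taken off. Cnn1, a dim gene at 7.85 ± 0.01 in control, fell by 0.23 in the Sap-1 knockdown (adjusted p = 0.0058) and lay at -0.08 in the Net knockdown. Tagln, encoding SM22-alpha, lay at -0.13 and -0.16 and passed in neither (adjusted p = 0.16 and 0.069), although the latter passed in 5 of 17 other settings (adjusted p = 0.021 to 0.043). Tagln2 fell by 0.15 in the Sap-1 knockdown (adjusted p = 0.025), but its neighbouring genes had a median difference of -0.29 there, and with that taken off its sign turned (0.14, adjusted p = 0.024). That call was also lost without control replicate 3 (adjusted p = 0.094) or without Sap-1 shRNA replicate 3 (adjusted p = 0.085).

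Among the 8 actin-binding genes 3 fell and none rose in the Net knockdown, and 1 rose and 2 fell in the Sap-1 knockdown. Between the knockdowns 2 (25%) were lower in the Net knockdown and 1 (12.5%) was higher. The shares there were 13.3% and 14.2% of all genes, and 22.9% and 23.2% of genes at or above the median level. The falls were 37.5% of the 8 in the Net knockdown, where 10.2% of all genes and 17.7% of those at or above the median level fell. Rises, of which the 8 had none there, were 13.4% and 23.0%. In the Sap-1 knockdown 25% of the 8 fell and 12.5% rose. The shares there were 13.9% and 15.8% of all genes, and 22.3% and 26.9% of those at or above that level.

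Mical2 encodes a monooxygenase that oxidises actin and promotes filament breakdown. Its level was 9.89, 9.89 and 9.91 on the control arrays, 9.65, 9.55 and 9.46 on the Net shRNA arrays and 10.36, 10.38 and 10.43 on the Sap-1 shRNA arrays. The 3 groups did not overlap, with control in the middle. It fell by 0.34 in the Net knockdown (SE 0.05, adjusted p = 0.00039) and rose by 0.49 in the Sap-1 knockdown (SE 0.05, adjusted p = 1.7e-05). Net minus Sap-1 shRNA was -0.84 (95% interval -0.94 to -0.73, adjusted p = 2.3e-07).

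Flna, whose product filamin A crosslinks actin into networks, fell in the Net knockdown. It stood at 13.01, 12.94 and 12.96 on the control, 12.68, 12.80 and 12.78 on the Net shRNA and 12.93, 12.95 and 13.05 on the Sap-1 shRNA arrays. The difference was -0.22 from control (adjusted p = 0.0077), 0.01 in the Sap-1 knockdown (adjusted p = 0.93) and -0.22 between the knockdowns (adjusted p = 0.0051). Actn1, encoding the crosslinker alpha-actinin, lay at 0.03 in the Net knockdown and at 0.12 in the Sap-1 knockdown (adjusted p = 0.63 and 0.051), and the latter passed in 6 of 17 other settings.

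Lima1, which encodes EPLIN, a protein that stabilises actin filaments, fell in both knockdowns. Its level was 12.56, 12.53 and 12.59 on the control arrays, 12.32, 12.41 and 12.38 on the Net shRNA arrays and 12.24, 12.20 and 12.29 on the Sap-1 shRNA arrays, with no overlap between groups. The falls were 0.19 (adjusted p = 0.0074) and 0.32 (adjusted p = 0.00017). The difference between them, 0.13 (adjusted p = 0.045), was lost in 10 of 17 other settings (adjusted p = 0.051 to 0.2). Wdr1, a cofactor of cofilin in filament disassembly, fell by 0.17 in the Sap-1 knockdown (adjusted p = 0.0084), a difference that was 0 (adjusted p = 0.94) with its neighbours' median taken off. In the Net knockdown Wdr1 lay at -0.11 (adjusted p = 0.068) and passed in 4 of 17 other settings. The PDZ and LIM domain genes Pdlim5 (0.17 and 0.08) and Pdlim7 (-0.15 and -0.07) and the villin gene Vil1 (0.07 and -0.02) were not called in either knockdown. Vil1, a gene of epithelial microvilli, stood at 6.32 ± 0.07 in control, below the median level of all genes.

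Among the 14 adhesion plaque genes 4 fell and 1 rose in the Net knockdown, 2 fell and 2 rose in the Sap-1 knockdown, and 2 were lower and 1 higher between the knockdowns. Their median difference was -0.03 in the Net and -0.01 in the Sap-1 knockdown, compared with -0.11 and 0 for the contractile genes. Falls made up 28.6% of the 14 in the Net knockdown, beside 10.2% of all genes and 17.7% of those at or above the median level. Rises made up 7.14% there, beside 13.4% and 23.0%. In the Sap-1 knockdown falls and rises made up 14.3% each. Among all genes these were 13.9% and 15.8%, and among genes at or above the median level 22.3% and 26.9%. Between the knockdowns 14.3% of the 14 were lower and 7.14% higher. The shares there were 13.3% and 14.2% of all genes and 22.9% and 23.2% of genes at or above that level.

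Tes encodes testin, a LIM-domain protein of focal adhesions and cell contacts that binds zyxin. Its level was 10.34, 10.35 and 10.35 on the control arrays, 9.96, 10.10 and 9.90 on the Net shRNA arrays and 11.45, 11.39 and 11.36 on the Sap-1 shRNA arrays. The groups were far apart compared with the spread within them. Tes fell by 0.36 in the Net knockdown (SE 0.05, adjusted p = 0.00046) and rose by 1.06, or 2.08-fold, in the Sap-1 knockdown (SE 0.05, adjusted p = 6.8e-08). Net minus Sap-1 shRNA was -1.41 (95% interval -1.53 to -1.30, adjusted p = 5.7e-09). Cav1, the caveolin-1 gene, lies close to Tes in the RefSeq gene order, with Cav2 and 3 long non-coding RNA genes between them. Cav1 lay at 0.05 and 0.03 and Cav2 at 0.19 and 0.06 in the Net and Sap-1 knockdowns.

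**Figure D3:**
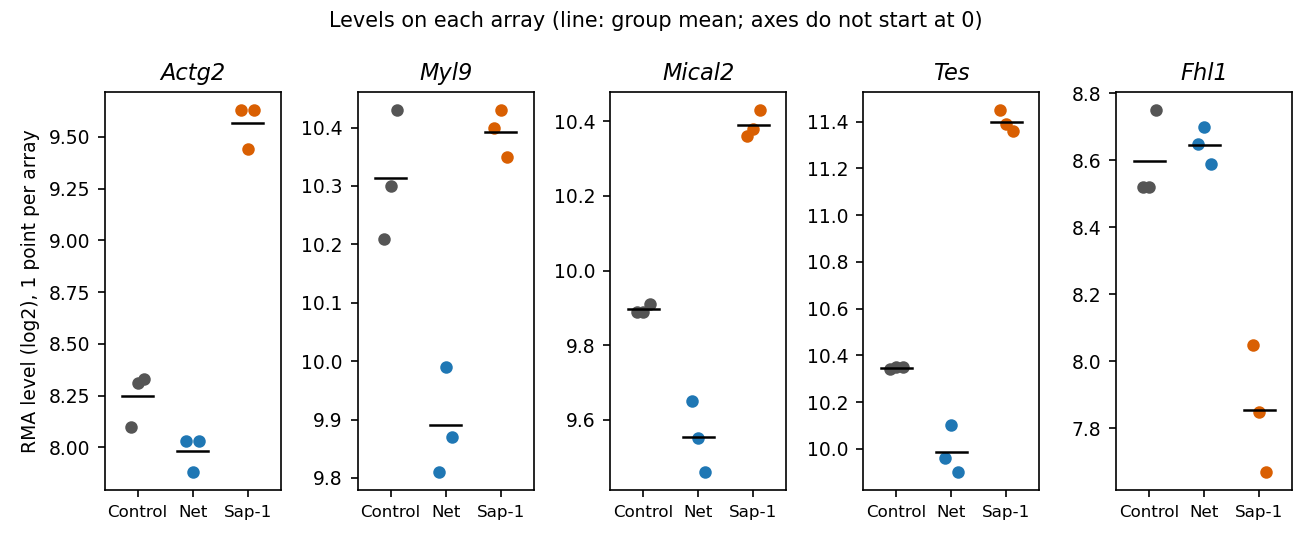
RMA level (log2) of Actg2, Myl9, Mical2, Tes and Fhl1 on each of the 9 arrays, with a line at each group mean and axes that do not start at 0. Actg2, Mical2 and Tes have the Net shRNA arrays below and the Sap-1 shRNA arrays above control, Myl9 is low in the Net knockdown and Fhl1 is low in the Sap-1 knockdown.

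Pxn and Bcar1 encode paxillin and p130Cas, scaffold proteins that are phosphorylated in adhesions, and they moved in opposite directions to each other in both knockdowns. Pxn stood at 10.95, 10.94 and 11.07 on the control, 10.73, 10.72 and 10.62 on the Net shRNA and 10.66, 10.68 and 10.58 on the Sap-1 shRNA arrays, so that both knockdowns lay below control and overlapped each other. It fell by 0.30 (adjusted p = 0.0015) and 0.35 (adjusted p = 0.00034), and the knockdowns differed by 0.05 (95% interval -0.06 to 0.16). Bcar1 rose by 0.31 in the Net knockdown (adjusted p = 0.002) and 0.25 in the Sap-1 knockdown (adjusted p = 0.0053), its arrays at 10.77, 10.78 and 10.93 in control, 11.23, 11.13 and 11.05 in the Net knockdown and 11.10, 11.09 and 11.05 in the Sap-1 knockdown. Once the median of its neighbours was taken off, Bcar1 was no longer called, at 0.11 (adjusted p = 0.22) and 0.16 (adjusted p = 0.074).

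Tns1, encoding tensin 1, which links integrins to actin, stood at 11.32, 11.30 and 11.31 on the control, 11.03, 11.05 and 11.02 on the Net shRNA and 11.42, 11.39 and 11.41 on the Sap-1 shRNA arrays. The 3 groups did not overlap. It fell by 0.28 in the Net knockdown (SE 0.04, adjusted p = 0.00018), lay at 0.10 in the Sap-1 knockdown (adjusted p = 0.058, passing in 4 of 17 other settings) and differed between them by -0.38 (adjusted p = 1.1e-05). Of its 6 probe sets 5 lay at -0.41 to -0.28 in the Net knockdown and the dimmest lay at 0.12. Tns3, the gene of a related tensin, lay at 0 in both comparisons.

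Zyx, the zyxin gene, stood at 13.16, 13.18 and 13.25 on the control, 13.21, 13.20 and 13.18 on the Net shRNA and 13.02, 13.04 and 12.99 on the Sap-1 shRNA arrays. It fell by 0.18 in the Sap-1 knockdown (adjusted p = 0.0052) and lay at 0 in the Net knockdown, a direct difference of 0.18 (adjusted p = 0.0058). With its neighbours' median taken off, neither passed, at -0.07 (adjusted p = 0.25) and 0.03 (adjusted p = 0.64). Zyxin recruits Ena and VASP proteins to adhesions, and Vasp lay at 0 and -0.03.

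Ilk, Lims1 and Parva encode integrin-linked kinase, PINCH-1 and alpha-parvin, which form a complex at integrin tails. Lims1 fell by 0.17 in the Net knockdown (adjusted p = 0.01), from 11.58 ± 0.06 to 11.41 ± 0.02, and this became -0.06 (adjusted p = 0.41) with the neighbours' median taken off. Parva lay at -0.12 in the Net knockdown (adjusted p = 0.052) and passed in 8 of 17 other settings, and Ilk at 0.04. In the Sap-1 knockdown the values were -0.07 for Lims1, -0.06 for Parva and 0.10 for Ilk, none of them called.

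The remaining 4 adhesion plaque genes were called in none of the 3 comparisons. Vcl (vinculin) lay at -0.02 and 0.04 in the Net and Sap-1 knockdowns, Tln1 (talin 1, the integrin activator) at -0.05 and -0.01, Fermt2 (kindlin-2, its partner in activation) at 0.08 and 0.04 and Tgfb1i1 (Hic-5, a paxillin relative) at -0.08 and -0.10. The 95% intervals of these 8 differences all lay within -0.23 to 0.20.

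**Figure D4:**
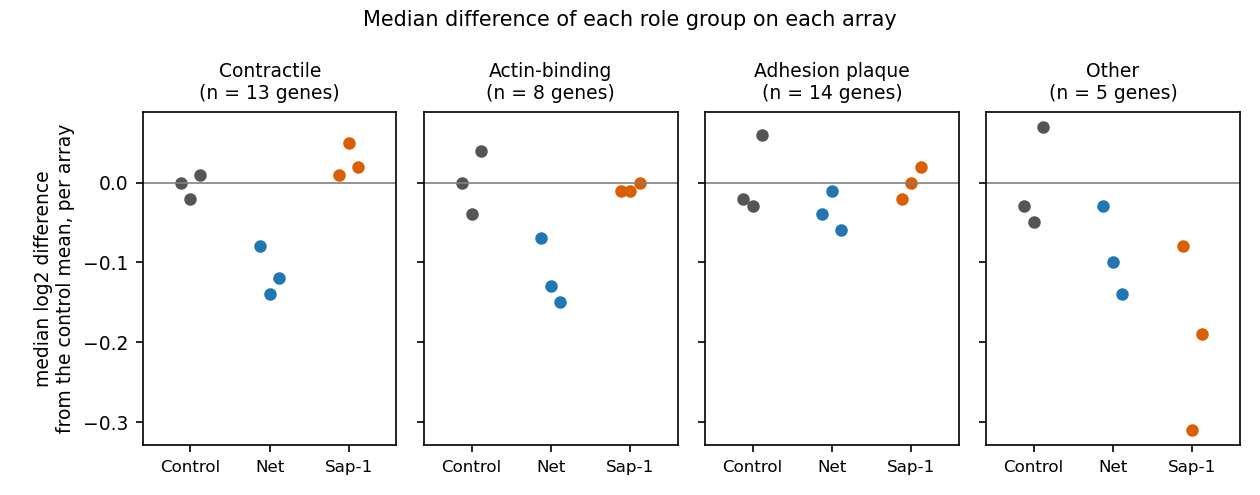
Median log2 difference from the control mean over the genes of each role group, 1 point per array. The Net shRNA arrays lie at -0.14 to -0.08 for contractile genes, below all control arrays, and at -0.06 to -0.01 for adhesion plaque genes, within the control range of -0.03 to 0.06 or just below it.

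The medians of the role groups were also taken on single arrays. For the 13 contractile genes the median difference from the control mean was -0.02 to 0.01 on the control arrays, -0.14 to -0.08 on the Net shRNA arrays and 0.01 to 0.05 on the Sap-1 shRNA arrays. For the 8 actin-binding genes it was -0.04 to 0.04, -0.15 to -0.07 and -0.01 to 0. For the 14 adhesion plaque genes it was -0.03 to 0.06, -0.06 to -0.01 and -0.02 to 0.02, and all 3 groups of arrays overlapped. For the 5 other genes it was -0.05 to 0.07, -0.14 to -0.03 and -0.31 to -0.08. On each Sap-1 shRNA array this median of 5 values was that of Tuft1 alone. Tuft1 was not called in the Sap-1 knockdown (limma adjusted p = 0.23), and its Sap-1 shRNA and control arrays overlapped. The median therefore shows no shift of this group as a whole. The difference between role groups was not tested.

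The 5 further SRF-linked genes included the largest fall. Fhl1, the gene of a LIM-only protein of muscle and stress fibres, with a CArG box 102 bases before its start site, stood at 8.52, 8.52 and 8.75 on the control arrays, 8.65, 8.70 and 8.59 on the Net shRNA arrays and 8.05, 7.85 and 7.67 on the Sap-1 shRNA arrays. The Sap-1 shRNA arrays lay below all others and were the most spread. It fell by 0.74 in the Sap-1 knockdown (SE 0.09, adjusted p = 9e-05), lay at 0.05 in the Net knockdown (95% interval -0.15 to 0.25) and differed between the knockdowns by 0.79 (adjusted p = 5.8e-05). Fhl2, a relative that binds SRF, lay at -0.10 and 0.04, and its direct difference of -0.14 (adjusted p = 0.049) was lost in 11 of 17 other settings, with its sign turned (0.08, adjusted p = 0.3) when the neighbours' median was taken off.

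Jak2, a cytokine receptor kinase gene, fell in both knockdowns, from 9.67, 9.63 and 9.76 on the control arrays to 9.26, 9.35 and 9.41 on the Net shRNA and 9.22, 9.25 and 9.26 on the Sap-1 shRNA arrays. The falls were 0.34 (SE 0.05, adjusted p = 0.0004) and 0.44 (SE 0.05, adjusted p = 3.9e-05), and the difference between them of 0.10 did not pass (95% interval -0.01 to 0.21). Tuft1, the tuftelin gene, lay at -0.22 and -0.19 (adjusted p = 0.19 and 0.23), with control replicate 3 at 10.02 and the other control arrays at 9.63 and 9.57.

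Placed side by side, 7 of the 40 genes (17.5%) were called in both knockdowns, where 14.9% of all genes and 25.9% of genes at or above the median level were. Lima1, Pxn and Jak2 fell in both, Bcar1 rose in both, and Actg2, Mical2 and Tes fell in the Net and rose in the Sap-1 knockdown. Genes lower in the Net and higher in the Sap-1 knockdown made up 7.5% of the 40, 1.4% of all genes and 2.49% of genes at or above the median level, and genes lower in both made up 7.5%, 4.97% and 8.42%. Genes higher in both made up 2.5%, 6.96% and 12.4%. Genes higher in the Net and lower in the Sap-1 knockdown made up 0%, 1.56% and 2.59%. Since both comparisons use the same control arrays, these shares are descriptions and were not tested. Cnn2, Myl9, Flna, Tns1, Tpm1 and Lims1 were called against control in the Net knockdown but not in the Sap-1 knockdown. The direct test also called Cnn2, Myl9, Flna and Tns1 but not Tpm1 (-0.05, adjusted p = 0.38) or Lims1 (-0.10, adjusted p = 0.093). Tpm2, Zyx, Fhl1, Cnn1, Tagln2 and Wdr1 were called in the Sap-1 but not in the Net knockdown. Of these the direct test called Tpm2, Zyx and Fhl1 but not Cnn1 (0.15, adjusted p = 0.061), Tagln2 (0.13, adjusted p = 0.051, passing in 6 of 17 other settings) or Wdr1 (0.05, adjusted p = 0.4). The shares of all genes called in 1 knockdown alone were not computed, so these genes are only listed. The direct comparison called 14 of the 40 genes, 11 lower and 3 higher in Net knockdown than Sap-1 knockdown cells, among them Myh9, Tpm4 and Fhl2, which were called against control in neither. These are 27.5% and 7.5% of the 40, beside 13.3% and 14.2% of all genes and 22.9% and 23.2% of genes at or above the median level.

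**Figure D5:**
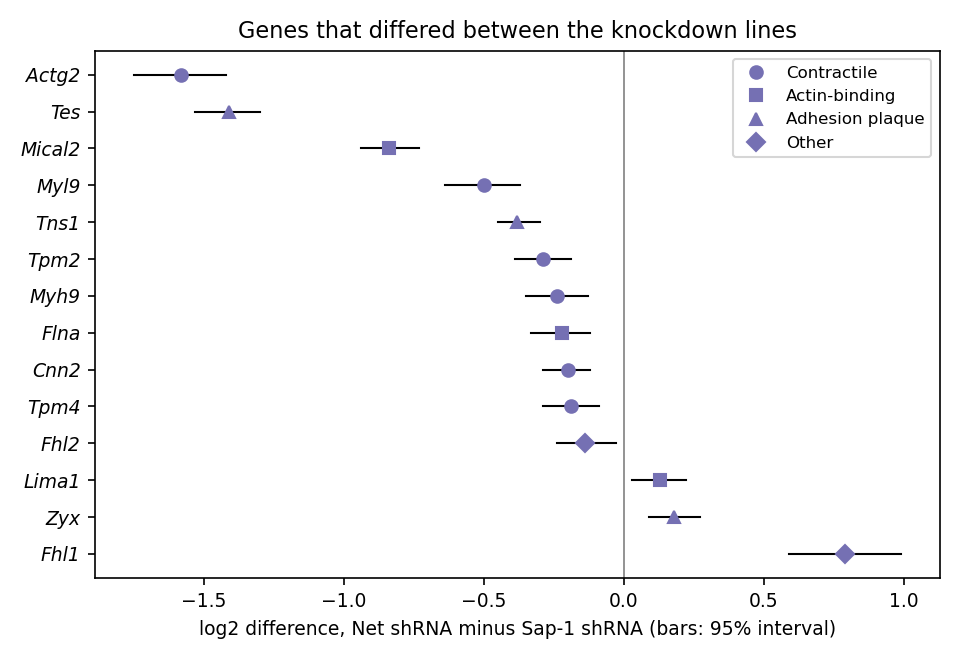
Log2 difference, Net shRNA minus Sap-1 shRNA, of the 14 genes called in the direct comparison, with 95% intervals from the limma fit (3 arrays per group) and the shape of the point giving the role. Actg2 (-1.58) and Tes (-1.41) lie farthest to the left, 11 genes lie below 0, and Fhl1 (0.79) lies farthest to the right.

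In no comparison were 18 of the 40 genes called, namely Acta2, Actb, Actc1, Tagln, Actn1, Pdlim5, Pdlim7, Vil1, Vcl, Tln1, Tgfb1i1, Ilk, Parva, Fermt2, Tns3, Vasp, Cav1 and Tuft1. Their 95% intervals against control lay within -0.46 to 0.33, and within -0.29 to 0.33 for the 17 other than Tuft1. In at least 1 other setting some of them passed against control, namely Acta2, Actb, Tagln, Actn1, Pdlim7, Vil1, Parva and Fermt2. Differences within these bounds remain possible for them. Of all 19935 genes, 15221 were not called in the Net knockdown, 14014 in the Sap-1 knockdown and 14455 between the knockdowns. How many of all genes were called in no comparison was not counted, so the 18 have no background to stand beside.

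A further 3 lists of genes of the same machinery each had members called in both directions. Their counts stand beside a background, among genes at or above the median level, of 23.0% higher and 17.7% lower in the Net knockdown and 26.9% and 22.3% in the Sap-1 knockdown. The shares of all genes were 13.4% higher and 10.2% lower in the Net knockdown and 15.8% and 13.9% in the Sap-1 knockdown. No list was tested against these shares. Of 26 genes of actin assembly and turnover 5 rose and 7 fell in the Net knockdown, and 7 rose and 2 fell in the Sap-1 knockdown. Capg, whose product caps filament ends, rose by 0.92 (adjusted p = 7.6e-06) and Tmsb4x, the gene of the monomer-binding thymosin beta-4, fell by 0.53 (adjusted p = 8.1e-06) in the Net knockdown. Enah, encoding the Ena protein that extends filaments, fell by 0.52 in the Net knockdown (adjusted p = 9.6e-06) and by 0.66 in the Sap-1 knockdown (adjusted p = 8.1e-07). The pointed-end capping gene Tmod3 rose by 0.45 and the gelsolin gene Gsn by 0.39 in the Sap-1 knockdown.

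Of 22 other actomyosin genes 3 rose and 7 fell in the Net knockdown, and 4 rose and 5 fell in the Sap-1 knockdown. Mylk, the myosin light chain kinase gene, rose by 0.32 in the Net knockdown (adjusted p = 0.0001), while Lmod1, encoding a leiomodin that nucleates actin, fell by 0.46 and the myosin phosphatase gene Ppp1r12a by 0.27. Mylk was dim, at 7.17, 7.12 and 7.09 on the control arrays. The supervillin gene Svil fell by 0.67 in the Sap-1 knockdown (adjusted p = 9.3e-06), where Des and Acta1, given above as muscle markers, rose.

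Of 29 other adhesion plaque genes 4 rose and 7 fell in the Net knockdown, and 9 rose and 8 fell in the Sap-1 knockdown. Pdlim2 and Parvb, the beta-parvin gene, each fell by 0.45 in the Net knockdown, and the Arf regulator gene Git2 fell by 0.35. Pdlim1, encoding a partner of alpha-actinin, rose by 1.00 in the Sap-1 knockdown (adjusted p = 7.5e-08), the tensin gene Tns2 by 0.80 (adjusted p = 9.5e-07) and the vinexin gene Sorbs3 by 0.51 (adjusted p = 1.1e-05). The median difference of each of these 3 lists lay between -0.05 and 0.06 in both knockdowns.

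Markers of cell types outside the mesenchyme stood low on average, though Flt1 (9.31), Cd68 (8.38) and Krt8 (8.30) were brighter in control. The means of 13 epithelial, 13 endothelial and 12 macrophage markers were 6.55 to 7.07 on the control arrays, and 2, 3 and 2 of them rose in the Net knockdown with none lower. In the Sap-1 knockdown 1, 3 and 1 rose and 0, 1 and 2 fell. Over all genes 13.4% rose and 10.2% fell in the Net knockdown, and 15.8% and 13.9% in the Sap-1 knockdown. The endothelial mean was 7.04 to 7.07 on the control, 7.25 to 7.32 on the Net shRNA and 7.17 to 7.19 on the Sap-1 shRNA arrays, with no overlap between groups. Tek, an angiopoietin receptor gene, rose by 1.84 in the Net knockdown and fell by 0.30 in the Sap-1 knockdown, whereas Emcn, the endomucin gene, rose by 0.27 and 0.89. Flt1, an endothelial marker, rose by 0.36 in the Net and 0.25 in the Sap-1 knockdown. Cdh5, the VE-cadherin gene, rose by 0.84 in the Sap-1 knockdown, and Pecam1, Kdr and Tie1 lay between -0.05 and 0.03 in both. The epithelial mean was 6.87 to 6.96, 6.91 to 6.99 and 6.83 to 6.90 on control, Net shRNA and Sap-1 shRNA arrays, and the macrophage mean 6.55 to 6.60, 6.60 to 6.63 and 6.51 to 6.56. Their part in the results above was not tested.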

How the data were processed

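The deposited values are log2 levels, 1 for each probe set on each array, which the authors made with RMA. The submitters' processing notes name Affymetrix Expression Console as the program. Its version and settings and the genome build are not given in the sources used here. Detection calls were not used here, and precision is limited by how many arrays there are. RMA compresses small differences of dim genes and removes shifts shared by most genes. Gene symbols came from the platform annotation and were updated through Entrez IDs in a RefSeq table of GRCm38.p6, which also gave gene order.

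A single limma model over all 9 arrays gave every difference (limma 3.58.1, R 4.3.3, lmFit and eBayes without trend, 6 residual and 4.7 prior degrees of freedom). The p-values were two-sided and Benjamini-Hochberg adjusted over 19935 genes, with calls made below 0.05. Every measured member is named, with values on every array for those called at 0.5 or more on the log2 scale and for some other called genes, besides the TCF, Srf and Mrtf genes and up to 3 called genes per comparison of the pathway lists, from which some are given. The result of 1 pathway list is not reported here. Members and lists were chosen with earlier results of these data known. The scripts were tested on simulated data. Other settings were a replicate block, robust variances with an intensity trend, a fit to the 6 arrays of a comparison alone, median centring, cyclic loess, genes below the median left out, probe sets averaged per gene, the median of the 50 nearest expressed neighbours taken off, each array left out, and stricter thresholds. A planned protein comparison of the actins was not run, as protein sequences were not used here.

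Same-numbered replicates had deviations with correlations of -0.11 to 0.36, not all above 0.1, so replicate numbers were not taken to pair the samples. Differently numbered replicates had -0.43 to 0.30. The pairs of replicate 1 were all above 0, at 0.25, 0.17 and 0.36, so a partial pairing remains possible. A replicate block called 4985 of all genes in the Net knockdown, 6263 in the Sap-1 knockdown and 5752 between them. Without it 4714, 5921 and 5480 were called.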

Additional observations from a re-analysis of the deposited data

Results flagged for a closer look

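Actg2, Mical2 and Tes were each called against control in both knockdowns with opposite directions, lower with the Net shRNA and higher with the Sap-1 shRNA. The direct limma test of Net minus Sap-1 shRNA gave -1.58 for Actg2, -0.84 for Mical2 and -1.41 for Tes. The fall of Actg2 in the Net knockdown was the least secure of these calls.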

How the results depend on the processing

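Of 40 calls of these genes over the 3 comparisons, 27 were kept at an adjusted p under 0.05 in each of the 17 other settings that tested the gene, and 13 were lost in at least 1, each named beside its gene. Another 21 differences that were not called passed in at least 1 setting, most often Parva in the Net knockdown (8 settings), Actn1 in the Sap-1 knockdown and Tagln2 between the knockdowns (6 each). With the neighbours' median taken off, the sign turned for Tagln2 in the Sap-1 knockdown (0.14) and between the knockdowns (-0.22), and for Fhl2 between the knockdowns (0.08). The cause was not tested. With an intensity trend and robust variances 2 genes rose in the Net and 9 in the Sap-1 knockdown, cyclic loess gave 2 in the Net knockdown, and leaving out genes below the median gave 9 in the Sap-1 knockdown. A threshold of 1.5-fold left 0 higher and 0 lower in the Net knockdown, 2 and 1 in the Sap-1 knockdown and 1 and 3 between the knockdowns, out of 510, 890 and 924 genes called in all, fewer by construction. Leaving out 1 array gave 1 to 2 higher genes in the Net knockdown, the 2 being reached without control replicate 3. The replicate block gave 1 higher and 13 lower genes in the Net knockdown, 5 and 8 in the Sap-1 knockdown and 2 and 10 between the knockdowns. It added Parva in the Net knockdown (-0.12, adjusted p = 0.05) and lost Lima1 and Fhl2 between the knockdowns. Replicate numbers were not shown to pair the samples. As RMA compresses small differences of dim genes, those of Vil1 and Cnn1 may be too small. Their standard errors against control were 0.05. The largest among the measured genes were 0.11 for Tuft1 and 0.09 for Fhl1.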
